A study of Mus musculus with 2 samples.

Results

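The 8 genes described here encode transcription factors of the myeloid lineage: Cebpa, Cebpb, Cebpd, Cebpe, Cebpg, Spi1, Gfi1 and Klf4. They were chosen by gene symbol, and all 8 were found among the 32285 genes counted. Their RNA was read in single bone marrow cells of the LSK fraction, which lacks lineage markers, carries Sca-1 and much Kit, and holds blood stem cells and early progenitors. The mice were young IκB– animals, called IkBKO here after the name used in the cell table, and young wild-type (WT) animals. Cells of both genotypes were tagged with antibodies and run together in each of 2 droplet libraries, so there were 2 IkBKO and 2 WT pools. Which IκB genes the mice lacked, in which cells, and how many mice went into a pool is not stated, so a p-value here refers to the spread among 4 pools and that spread may be technical.

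C/EBP proteins bind DNA as pairs and drive myeloid genes. C/EBPα is needed to make granulocyte and monocyte progenitors, C/EBPβ acts when granulocytes are made on demand, C/EBPδ is induced in inflammation, and C/EBPε acts late, in the making of secondary granules. C/EBPγ lacks an activation domain and pairs with the others. Spi1 encodes PU.1, which acts with C/EBPα and which lymphoid and dendritic cells also need. Gfi1 is a repressor that favours neutrophils and restrains stem cell division, and Klf4 favours monocytes. IκB proteins hold NF-κB in the cytoplasm, and the study's title concerns myeloid bias in stem cells and progenitors.

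The genes lie apart in the genome (mouse build mm10) except for Cebpa at chr7:35119293-35121928 on the plus strand and Cebpg at chr7:35046422-35056573 on the minus strand, which are neighbours. Cebpb lies at chr2:167688915-167690418 and Spi1 at chr2:91082390-91115756, both on the plus strand. Cebpd lies at chr16:15887286-15891031 on the plus strand. Cebpe lies at chr14:54710360-54712174, Gfi1 at chr5:107716657-107726036 and Klf4 at chr4:55527143-55532466, all on the minus strand. RefSeq promoter windows (build GRCm38.p6, the assembly behind mm10; 250 bases before to 50 after a start) were matched for Cebpa, Cebpb, Cebpg, Gfi1 and Klf4; Cebpd, Cebpe and Spi1 had no entry. The windows of 4 members that the results below set apart are printed 5′ to 3′ on the gene's strand, with capitals for a match to the C/EBP motif TTGCNNAA.
Cebpa, chr7:35119043-35119342, plus strand: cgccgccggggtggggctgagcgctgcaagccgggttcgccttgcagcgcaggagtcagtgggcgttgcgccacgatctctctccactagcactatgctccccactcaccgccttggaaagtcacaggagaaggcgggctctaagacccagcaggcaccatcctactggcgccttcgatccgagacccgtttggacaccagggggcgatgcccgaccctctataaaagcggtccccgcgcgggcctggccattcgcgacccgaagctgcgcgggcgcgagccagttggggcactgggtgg
Cebpg, chr7:35056517-35056816, minus strand: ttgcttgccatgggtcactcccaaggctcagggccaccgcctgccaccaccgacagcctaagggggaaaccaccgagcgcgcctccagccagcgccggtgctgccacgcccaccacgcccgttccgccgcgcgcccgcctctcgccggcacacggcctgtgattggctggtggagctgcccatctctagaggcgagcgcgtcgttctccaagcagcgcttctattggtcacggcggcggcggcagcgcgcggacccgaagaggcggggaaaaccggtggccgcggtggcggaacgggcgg
Gfi1, chr5:107725756-107726055, minus strand: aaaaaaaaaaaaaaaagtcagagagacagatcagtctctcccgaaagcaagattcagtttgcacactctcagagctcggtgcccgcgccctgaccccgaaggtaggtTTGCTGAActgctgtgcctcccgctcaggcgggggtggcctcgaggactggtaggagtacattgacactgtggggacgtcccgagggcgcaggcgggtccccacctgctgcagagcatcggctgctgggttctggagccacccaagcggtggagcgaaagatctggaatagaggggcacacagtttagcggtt
Klf4, chr4:55532426-55532725, minus strand: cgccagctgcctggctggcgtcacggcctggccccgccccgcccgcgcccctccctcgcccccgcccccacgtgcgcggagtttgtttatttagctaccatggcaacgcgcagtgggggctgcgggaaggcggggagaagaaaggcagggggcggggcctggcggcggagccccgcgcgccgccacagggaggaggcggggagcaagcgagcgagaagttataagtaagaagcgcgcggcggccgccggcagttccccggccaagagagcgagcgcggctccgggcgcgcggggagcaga
Each of the 6 windows, including that of Cebpb and a second Gfi1 start, was searched on both strands. The C/EBP motif TTGCNNAA was found once, in the Gfi1 window at -143 from the start, and 10.8% of 32851 RefSeq mouse promoter windows hold it. The PU.1 motif GAGGAA was in none of the 6, against 28.3% of all windows. The KLF motif CCACCC was in the windows of Cebpa, Cebpb and Gfi1, against 31.5% of all windows. An NF-κB-type motif, GGG followed by any 5 bases and CC, was in a window of each of the 5 genes, and 50.8% of all windows hold it. Matches to it can overlap each other. The second Gfi1 window held neither this motif nor the KLF motif. The windows searched were between 58% and 80.7% G and C, and the shares over all windows are not matched for this.

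The 4 pools held 3962 and 5383 IkBKO cells and 3721 and 4963 WT cells of libraries 1 and 2, and this order of libraries is kept in every pair of values below. Total UMIs (distinct RNA molecules) were 62834572 and 61278938 in IkBKO pools and 43674115 and 42165571 in WT pools. The median UMIs per cell were 13709 and 9641 in IkBKO, against 9963 and 6983 in WT, so IkBKO cells were read more deeply in both libraries. Of the markers of the sort, Kit stood at 118 and 194 CPM (counts per 1e6 UMIs) in IkBKO and 199 and 272 CPM in WT, and Ly6a, which encodes Sca-1, at 89.6 and 117 CPM in IkBKO and 52.4 and 90.3 CPM in WT. The 2 libraries shared 39 cell barcodes among 18029 cells. Cells with 20 or more UMIs of Mpo, the granule enzyme myeloperoxidase, made up 37.2% and 9.47% of IkBKO cells and 9.11% and 0.806% of WT cells. The libraries differed in this share within each genotype, and the comparisons of genotypes below keep library as a block.

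Over all LSK cells, Klf4 and Cebpa were higher in IkBKO, and the other 6 members did not pass the test. Klf4 stood at 17.1 and 10.3 CPM in IkBKO, against 7.42 and 4.77 CPM in WT. Both IkBKO pools lay above both WT pools. The log2 fold change (IkBKO over WT) was 1.25 ± 0.11 (SE), with an edgeR adjusted p of 0.0041. Cebpa stood at 43.1 and 18.5 CPM in IkBKO, against 32.6 and 14.1 CPM in WT. The IkBKO pool was the higher one within each library, but the groups overlapped across libraries. Its log2 fold change was 0.49 ± 0.08, adjusted p = 0.020. These were 2 of 8 members, beside 13.3% of the 14742 genes tested and 7.13% called higher. In a pool's total, more cells of a type and more RNA per cell cannot be told apart. Without the block, the adjusted p was 0.77 for Cebpa and 0.48 for Klf4. With 1 pool left out no block can be kept, the lone pool is taken to vary like the others, and neither was called: Cebpa had -0.36 without IkBKO library 1, 1.05 without IkBKO library 2, 1.33 without WT library 1 and -0.01 without WT library 2, while Klf4 stayed positive at 0.74, 1.67, 1.71 and 0.95 in the same order.

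Spi1 stood at 190 and 135 CPM in IkBKO, against 135 and 128 CPM in WT (0.38 ± 0.13, adjusted p = 0.12). Cebpb stood at 102 and 43.2 CPM in IkBKO, against 55.3 and 48.6 CPM in WT (0.46 ± 0.34, adjusted p = 0.45). Cebpd stood at 35.1 and 13.3 CPM in IkBKO, against 19.1 and 12 CPM in WT (0.62 ± 0.22, adjusted p = 0.15). In these 3 genes IkBKO library 1 was the highest pool, and for Cebpb the IkBKO pool of library 2 lay below both WT pools. DESeq2 called 4 members, Spi1 and Cebpd besides Klf4 and Cebpa, all higher. The shares of 13.3% and 7.13% of genes given above are those of edgeR, and the DESeq2 share is not given here. Without IkBKO library 2, Cebpb had a log2 fold change of 1.16 in edgeR. Gfi1 stood at 13.7 and 12.9 CPM in IkBKO, against 15.5 and 15.9 CPM in WT (-0.15 ± 0.10, adjusted p = 0.33). Both IkBKO pools of Gfi1 lay below both WT pools without passing the test. Cebpe stood at 10.5 and 4.42 CPM in IkBKO, against 12.1 and 5.19 CPM in WT (-0.12 ± 0.12, adjusted p = 0.53). Cebpg stood at 32.4 and 43.1 CPM in IkBKO, against 38.4 and 43.2 CPM in WT (-0.03 ± 0.08, adjusted p = 0.81), with overlapping groups.

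**Figure D1:**
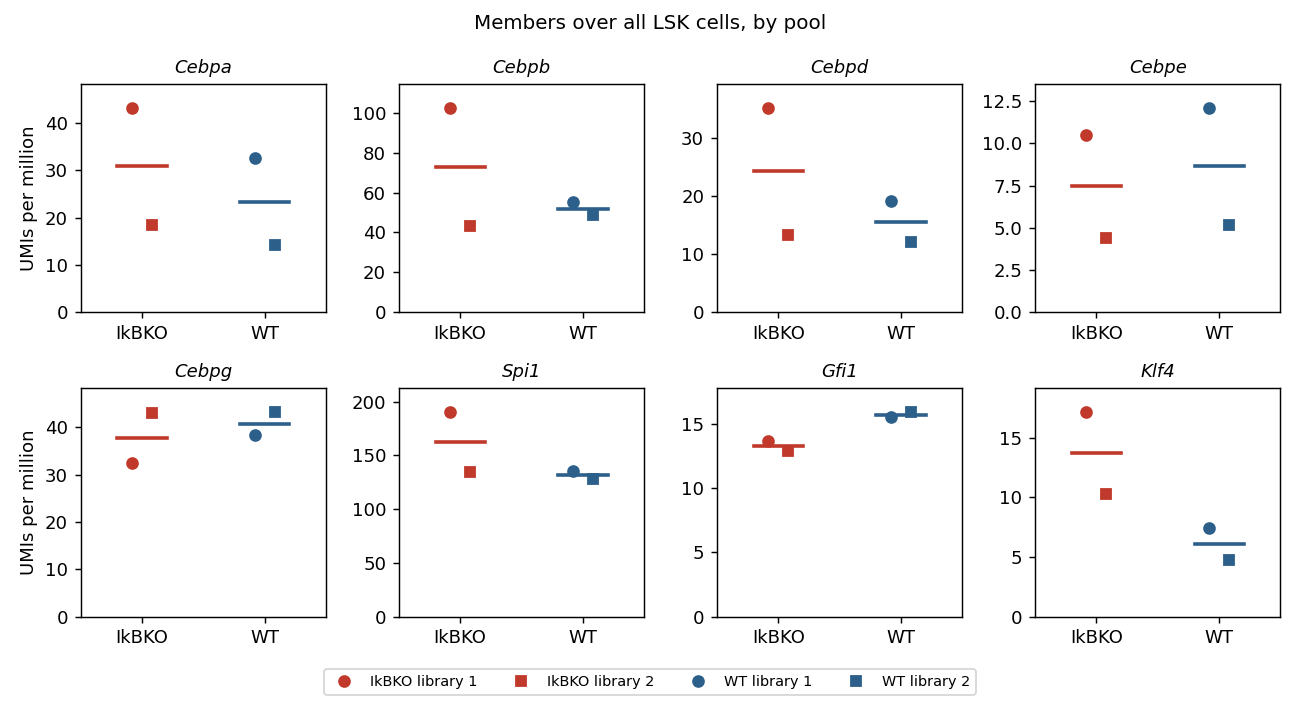
Level of each of the 8 genes over all LSK cells, in CPM (vertical axes start at 0), for IkBKO (left) and WT (right) pools; circles are library 1, squares library 2, and lines the mean of 2 pools. Klf4 is the gene whose IkBKO pools, at 17.1 and 10.3, both lie above its WT pools, at 7.42 and 4.77, and Cebpa is higher in IkBKO within each library.

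The share of cells in which Klf4 or Cebpa was seen was also higher in the IkBKO pool of each library, with every cell thinned to 4000 UMIs. Klf4 was seen in 4.41% and 2.73% of thinned IkBKO cells (exact binomial 95% intervals 3.79 to 5.10% and 2.30 to 3.21%), against 2.11% and 1.46% of thinned WT cells (1.67 to 2.64% and 1.13 to 1.84%). Unthinned, these shares were 10.2% and 4.66% in IkBKO and 4.60% and 2.64% in WT. Cells with 3 or more UMIs of Car1, an erythroid-primed gate in which Klf4 is low, held a Klf4 UMI in 2 of 287 and 0 of 246 thinned IkBKO cells, and in 0 of 63 and 0 of 9 thinned WT cells. The exact upper bounds of the 0 counts are 1.49% in IkBKO library 2 and 5.69% and 33.6% in WT. Median depths in that gate were 9544.5 and 17956 UMIs in IkBKO and 12975 and 19457.5 UMIs in WT. Cebpa was seen in 12.5% and 6.34% of thinned IkBKO cells, against 10.3% and 5.04% of thinned WT cells, with 1.39% and 1.22% in Car1-gated IkBKO cells and 3 of 63 and 0 of 9 Car1-gated WT cells. Intervals cover counting error only.

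Along Mpo, 6 of the 8 genes were higher in cells with 20 or more Mpo UMIs than in cells with none, in all 4 pools. This stands beside 67.1% of 13046 genes called in that comparison and 32.8% called higher. Cebpe had the steepest gradient, with a log2 fold change of 5.38 ± 0.19 (adjusted p = 5.6e-13). Cebpd (2.88 ± 0.14), Cebpa (2.53 ± 0.16) and Cebpb (1.75 ± 0.23) followed, then Gfi1 (1.24 ± 0.13) and Spi1 (1.13 ± 0.11). Cebpg had 0.00 ± 0.07 (adjusted p = 0.97) and Klf4 0.72 ± 0.33 (adjusted p = 0.076), with -0.15 without library 1 (adjusted p = 0.82) and 1.34 without library 2 (adjusted p = 1.5e-04). The bins share their Mpo 0 pools and come from the same libraries.

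From no Mpo UMI to 1 to 4, edgeR called none of the 8, beside 5.24% of genes, and 2 had an unadjusted p under 0.05: Cebpa (0.58 ± 0.16, adjusted p = 0.052) and Klf4 (-0.97 ± 0.33, adjusted p = 0.14). In cells thinned to 4000 UMIs before the bins were set, 3 were called at that step: Cebpa (1.10, adjusted p = 0.0013), Cebpd (0.53, adjusted p = 0.019) and Spi1 (0.31, adjusted p = 0.0043). The 5.24% belongs to the fit with all UMIs, and the share of all genes called in the thinned fit is not given here. In cells with 5 to 19 Mpo UMIs, 5 members were higher than in cells with none and 1 was lower, beside 34.4% of genes called, 17.4% higher and 17% lower. The higher ones were Cebpe (1.60 ± 0.26), Cebpa (1.46 ± 0.16), Cebpd (0.94 ± 0.15), Spi1 (0.46 ± 0.10) and Gfi1 (0.36 ± 0.13). The calls of Cebpd (0.85, adjusted p = 0.054) and Gfi1 (0.19, adjusted p = 0.60) were lost without library 1, and those of Cebpe (0.89, adjusted p = 0.088) and Spi1 (0.50, adjusted p = 0.13) without library 2. The lower one was Klf4 (-1.39 ± 0.39, adjusted p = 0.018), and Cebpb was not called (0.33 ± 0.23, adjusted p = 0.30).

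Thinning to equal depth changed 3 of these results. Klf4 lost its call (-0.10 ± 0.46, adjusted p = 0.89). Thinned, it stood at 16.2 and 6.84 CPM in IkBKO and 9.62 and 9.62 CPM in WT with 5 to 19 Mpo UMIs, against 14.3 and 18.5 CPM in IkBKO and 6.81 and 4.96 CPM in WT with none, so the 2 bins overlapped. Cebpb gained a call (1.21 ± 0.20, adjusted p = 5.3e-04), at 105 and 62.0 CPM in IkBKO and 62.9 and 125 CPM in WT with 5 to 19 Mpo UMIs, against 31.8 and 34.8 CPM in IkBKO and 44.3 and 49.7 CPM in WT with none. Here the 2 bins did not overlap. Gfi1 lost its call (0.13 ± 0.19, adjusted p = 0.64). The thinned WT pool of library 2 is small in that bin: its Klf4 level rests on 2 UMIs and its Gfi1 level on 4 UMIs.

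**Figure D2:**
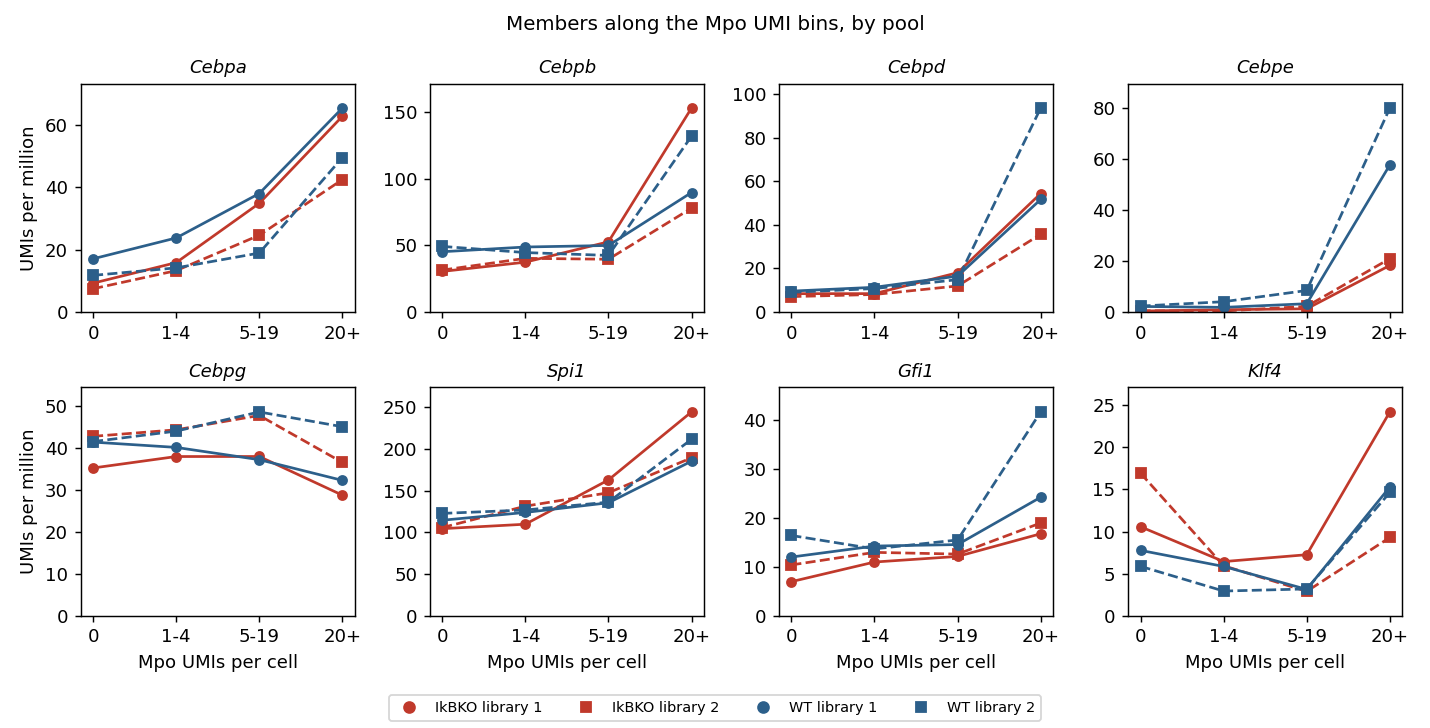
Level of each gene (CPM, axes start at 0) in cells with 0, 1 to 4, 5 to 19 and 20 or more Mpo UMIs; red is IkBKO, blue WT, circles with solid lines library 1, squares with dashed lines library 2. Cebpe in the highest bin stands at 18.3 and 20.9 in IkBKO and at 57.7 and 80.0 in WT, and Cebpg shows no climb.

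Among cells with no Mpo UMI, 4 of the 8 members were lower in IkBKO and none was called higher, beside 17.6% of genes called and 7.85% called lower. Cebpa stood at 9.26 and 7.47 CPM in IkBKO, against 17.1 and 11.8 CPM in WT. Cebpb stood at 30.4 and 31.4 CPM in IkBKO, against 45.2 and 49.2 CPM in WT. In both genes each IkBKO pool lay below each WT pool. The log2 fold changes were -0.73 ± 0.14 for Cebpa (adjusted p = 0.0047) and -0.59 ± 0.08 for Cebpb (adjusted p = 6.0e-04).

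Gfi1 and Cebpe, both linked to granulocytes, were the other two. Gfi1 stood at 6.99 and 10.4 CPM in IkBKO, against 12 and 16.4 CPM in WT (-0.68 ± 0.14, adjusted p = 0.0059). Cebpe was seen as 4 and 12 UMIs in IkBKO, against 24 and 52 UMIs in WT, which is 0.378 and 0.490 CPM in IkBKO and 2.17 and 2.33 CPM in WT (-2.31 ± 0.44, adjusted p = 0.0043). The groups did not overlap for either gene. Without cells holding 50 or more UMIs of the neutrophil genes S100a8, S100a9, Camp and Ngp, Cebpe in this bin was 4 and 10 UMIs in IkBKO and 10 and 10 UMIs in WT, too few to be tested. The other 3 calls held without those cells, at -0.73 for Cebpa, -0.57 for Cebpb and -0.66 for Gfi1, and all 4 held in cells thinned before the bins were set, at -0.72, -0.50, -2.12 for Cebpe and -0.58 for Gfi1. DESeq2 gave the same directions and called none (adjusted p = 0.30 for Cebpa, 0.051 for Cebpb, 0.23 for Cebpe, 0.38 for Gfi1), and with 1 pool left out the one call among these 4 genes was Cebpe without WT library 1 (-2.31, adjusted p = 0.038).

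Klf4 went the other way in these cells, at 10.6 and 16.9 CPM in IkBKO, against 7.77 and 5.88 CPM in WT. Both IkBKO pools lay above both WT pools, but the test was not passed (1.08 ± 0.29, adjusted p = 0.084). In thinned cells it was passed (1.54, adjusted p = 1.8e-04), and also without IkBKO library 1 (1.29, adjusted p = 0.037) and without WT library 1 (1.30, adjusted p = 0.032). Spi1 stood at 105 and 106 CPM in IkBKO, against 115 and 123 CPM in WT (-0.15 ± 0.07, adjusted p = 0.18). Cebpd (-0.25 ± 0.17) and Cebpg (-0.05 ± 0.09) were not called. Beside these values, the 8 mature neutrophil genes summed to 54.7 and 161 CPM in IkBKO cells with no Mpo UMI, against 1995 and 733 CPM in such WT cells, and the 10 immediate-early genes to 387 and 347 CPM in IkBKO, against 703 and 883 CPM in WT. In the same cells the 6 mast cell and basophil genes summed to 132 and 82.5 CPM in IkBKO, against 34.3 and 20.1 CPM in WT, and the 8 monocyte and dendritic genes to 809 and 817 CPM in IkBKO, against 655 and 543 CPM in WT. Over all LSK cells, 288 and 247 IkBKO cells and 64 and 10 WT cells held 3 or more Car1 UMIs. Cells with 3 or more Pf4 UMIs were also more numerous in IkBKO (counts below). These gates had the lowest mean Cebpa, Cebpb and Gfi1 of the 11 bins and gates described here. In cells with no Mpo UMI the 7 erythroid genes summed to 67.8 and 133 CPM in IkBKO and 299 and 129 CPM in WT. The part of Car1-gated and Pf4-gated cells, of the mast cell and basophil genes and of the immediate-early genes in these results was not tested.

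Above no Mpo UMI, Cebpe carried most of the calls. With 1 to 4 Mpo UMIs edgeR called none of the 8 members, beside 4.18% of genes, nor did DESeq2, and 3 had an unadjusted p under 0.05: Cebpe (-2.18 ± 0.55, adjusted p = 0.092), Cebpd (-0.40 ± 0.15) and Cebpb (-0.24 ± 0.10). Cebpe there was called with no filter on low counts (-2.20, adjusted p = 2.4e-05), and it had -1.06 in thinned cells (adjusted p = 0.30) and -0.25 without neutrophil-gene cells (adjusted p = 0.86). With 5 to 19 Mpo UMIs, Spi1 was higher (163 and 148 CPM in IkBKO, against 136 and 136 CPM in WT; 0.25 ± 0.07, adjusted p = 0.013) and Cebpe was lower (1.26 and 2.22 CPM in IkBKO, against 3.25 and 8.44 CPM in WT; -1.66 ± 0.37, adjusted p = 2.1e-04), beside 8.02% of genes called, 4.47% higher and 3.55% lower. DESeq2 called neither, and Cebpe there ran from -0.83 without WT library 2 to -2.10 without WT library 1, the one such fit that called it. With 20 or more Mpo UMIs, Cebpe alone of the 8 was called, beside 0.302% of genes called and 0.138% called lower. The WT pool of library 2 held 40 cells in this bin, so its levels are coarse. Gfi1 was not called there, but both its IkBKO pools also lay below both WT pools. Its means were 17.9 CPM in IkBKO and 33.0 CPM in WT, where library 2 held 37 Gfi1 UMIs. Cebpe stood at 18.3 and 20.9 CPM in IkBKO, against 57.7 and 80.0 CPM in WT, and the groups did not overlap. The log2 fold change was -1.75 ± 0.17 (adjusted p = 0.0060), and it stayed between -1.59 and -1.96 and called with any 1 pool left out. edgeR called no difference of a member's genotype effect between the highest and the lowest bin, beside 0.66% of genes. Cebpa was the 1 member with an unadjusted p under 0.05, with a difference of 0.76 ± 0.19 (adjusted p = 0.075).

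Cebpe RNA was spread unevenly over cells. The cells with 50 or more UMIs of the 4 neutrophil genes numbered 10 and 13 in IkBKO and 27 and 16 in WT. They held 9.23% and 18.1% of all Cebpe UMIs in IkBKO, against 22.7% and 79.9% in WT, and under 1.1% of all UMIs in any pool. For WT library 2, that is 175 of 219 Cebpe UMIs in 16 cells. The 8 mature neutrophil markers summed to 189 and 209 CPM in IkBKO and to 1387 and 1191 CPM in WT over all LSK cells, with none of the 8 at 0 in any pool. Without those cells, Cebpe with 20 or more Mpo UMIs stood at 16.7 and 17.1 CPM in IkBKO, against 49.6 and 30.3 CPM in WT, and was lower (-1.32 ± 0.20, adjusted p = 0.022). With 5 to 19 Mpo UMIs its fold change turned to 0.42 ± 0.50 (adjusted p = 0.74), and over all LSK cells to 0.83 ± 0.43 (adjusted p = 0.26).

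The difference over all LSK cells was split by giving the WT level of each Mpo bin the IkBKO share of UMIs in that bin (the bin-share part); what remains is the within-bin part. UMIs of cells with 20 or more Mpo UMIs were 55.7% and 17.5% of the IkBKO pools and 17.7% and 2.11% of the WT pools. For Cebpa the total log2 difference of 0.40 and 0.39 in libraries 1 and 2 was made of a bin-share part of 0.54 and 0.53 and a within-bin part of -0.14 and -0.14. Its within-bin part was thus below 0 in both libraries while its total was above 0. For Cebpe a bin-share part of 1.46 and 1.76 stood against a within-bin part of -1.66 and -1.99, with totals of -0.20 and -0.23. Gfi1 had the same pair of signs, 0.33 and 0.34 for the bin shares and -0.51 and -0.64 within bins. Klf4 was, with these shares, the one gene with both parts positive in both libraries, 0.58 and 0.38 between bins and 0.62 and 0.72 within them. Cebpb had within-bin parts of opposite sign, 0.53 in library 1 and -0.51 in library 2. The split depends on whose shares are used. With IkBKO bin levels at WT shares, the within-bin part was -0.29 and -0.24 for Cebpa, -1.63 and -2.29 for Cebpe, -0.46 and -0.44 for Gfi1, 0.54 and 1.27 for Klf4, and 0.10 and -0.42 for Cebpb. The signs of these 5 were those given above, while the size moved by over 1.5 times for Cebpa, for Klf4 in library 2 and for Cebpb in library 1. Klf4 in library 2 then came to 11.5 CPM, above the 10.3 CPM of all IkBKO cells, so its bin-share part there was below 0. The split is a description of 4 pools and was not tested. Without the cells of 20 or more Mpo UMIs, the fold change over the remaining LSK cells was -0.21 ± 0.13 for Cebpa (adjusted p = 0.33), -0.32 ± 0.06 for Cebpb (adjusted p = 0.0099) and -1.75 ± 0.26 for Cebpe (adjusted p = 0.0027). Without the neutrophil-gene cells as well, it was -0.21 for Cebpa (adjusted p = 0.32), -0.30 for Cebpb (adjusted p = 0.0089) and 0.14 ± 0.38 for Cebpe (adjusted p = 0.83).

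**Figure D3:**
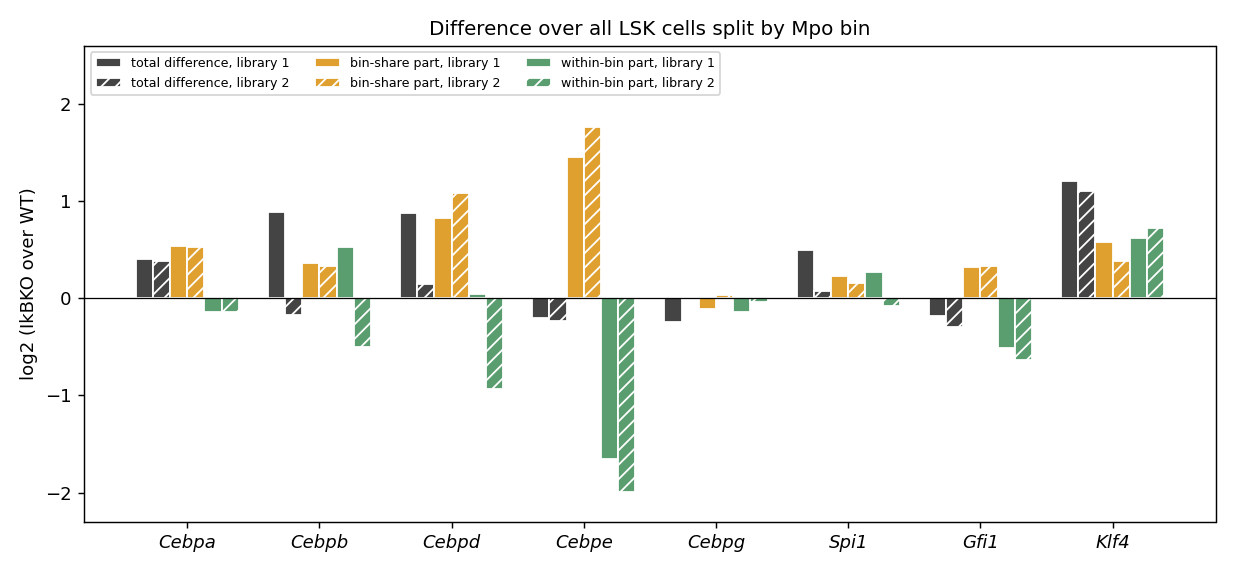
Log2 difference (IkBKO over WT) of each gene over all LSK cells and its 2 parts, by library (plain bars library 1, hatched bars library 2); the bin-share part comes from the shares of UMIs in the 4 Mpo bins and the within-bin part is the rest. Cebpe shows the widest opposition, 1.46 and 1.76 against -1.66 and -1.99, and Klf4 has both parts above 0.

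Much of the Klf4 RNA lay in cells that carried monocyte and dendritic genes. A cell was placed in this group with 5 or more UMIs over Csf1r, Ms4a6c, Ly86, Ccr2, Itgax, Batf3 and Siglech, a rule chosen after the data were seen that does not use Klf4. The group held 1299 and 714 IkBKO cells, 32.8% and 13.3% of the pools, against 281 and 70 WT cells, 7.55% and 1.41%. It held 1048 of 1076 and 571 of 630 Klf4 UMIs of the IkBKO pools, against 221 of 324 and 61 of 201 of the WT pools, so that WT library 2 had most of its Klf4 UMIs outside it. Within it Klf4 stood at 35.9 and 55.8 CPM in IkBKO, against 41.9 and 57.1 CPM in WT, and the groups overlapped (-0.10 ± 0.18, adjusted p = 1.0). edgeR and DESeq2 called none of the 8 members there, beside 1.49% of genes, and Cebpe was the 1 member with an unadjusted p under 0.05 (-0.94 ± 0.31, adjusted p = 0.23). Among cells with no Mpo UMI, 103 of 112 and 375 of 415 Klf4 UMIs of the IkBKO pools lay in these cells, against 63 of 86 and 34 of 131 of the WT pools. These cells held 10.1% and 11.5% of the UMIs of IkBKO cells with no Mpo UMI, against 4.79% and 1.22% of those of WT cells.

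Outside these cells the sign of the Klf4 difference depended on depth and threshold together. With all UMIs, Klf4 outside the group stood at 0.833 and 1.16 CPM in IkBKO, against 2.68 and 3.41 CPM in WT (-1.56 ± 0.22, adjusted p = 0.0057), the one member called of 8, beside 18.8% of genes called and 8.31% called lower. With any 1 pool left out it was not called (-1.39 to -1.75). Among cells with no Mpo UMI, the Klf4 fold change outside the group was -1.22 (adjusted p = 0.032), against 1.08 with the group. The effect inside the group minus that outside it was 1.55 ± 0.25 (adjusted p = 0.021), beside 0.0345% of genes called and 0.0207% called higher. IkBKO cells were the deeper ones, and a deeper cell reaches 5 UMIs more easily. Thinning also lowers the counts of the 7 genes, so fewer cells reach a given threshold. At 5 UMIs the thinned IkBKO pools held 134 and 187 Klf4 UMIs inside the group and 96 and 71 outside it. The thinned WT pools held 31 and 17 inside and 66 and 67 outside. With every cell thinned to 4000 UMIs and the same threshold of 5, Klf4 outside the group stood at 6.83 and 3.63 CPM in IkBKO, against 4.64 and 3.66 CPM in WT (0.33 ± 0.23, adjusted p = 0.38). With thinned cells and a threshold of 1 UMI, it stood at 1.97 and 1.21 CPM in IkBKO, against 3.43 and 3.45 CPM in WT (-1.13 ± 0.33, adjusted p = 0.063), and with a threshold of 8 UMIs at 12.4 and 7.22 CPM in IkBKO, against 5.82 and 4.08 CPM in WT (1.01 ± 0.18, adjusted p = 3.0e-04). With thinned cells and 2 UMIs, Klf4 outside the group stood at 2.92 and 1.24 CPM in IkBKO, against 3.63 and 3.40 CPM in WT. At 3 UMIs it stood at 4.21 and 1.44 CPM in IkBKO, against 3.68 and 3.41 CPM in WT. At equal depth the direction of the Klf4 difference outside these cells thus changed with the threshold.

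**Figure D4:**
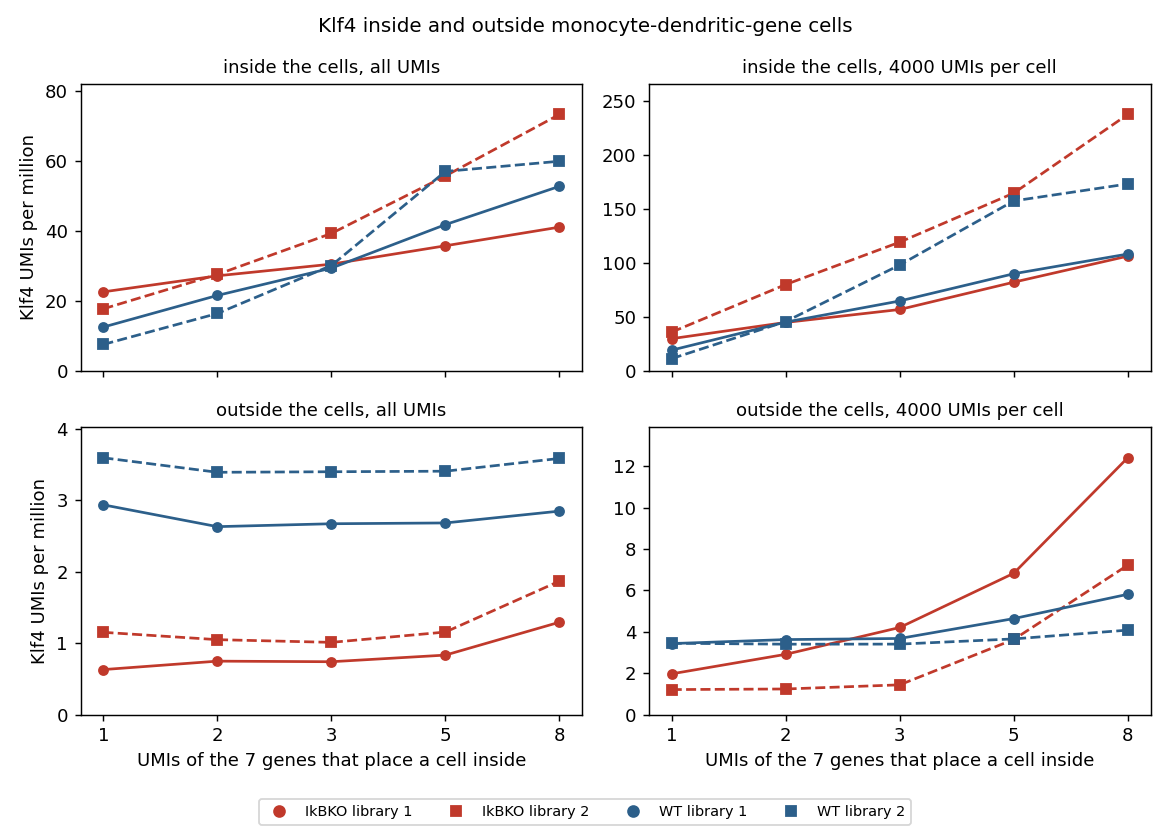
Klf4 level (CPM, axes start at 0) inside (top) and outside (bottom) the cells that reach 1, 2, 3, 5 or 8 UMIs of the 7 monocyte and dendritic genes, with all UMIs (left) and with cells thinned to 4000 UMIs (right); red is IkBKO, blue WT, circles with solid lines library 1, squares with dashed lines library 2. Outside the cells, IkBKO lies below WT at every threshold with all UMIs, whereas with thinned cells the order changes with the threshold, with IkBKO at 1.97 and 1.21 and WT at 3.43 and 3.45 at 1 UMI, and IkBKO at 12.4 and 7.22 and WT at 5.82 and 4.08 at 8 UMIs.

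Immediate-early genes also moved with genotype: their 10 genes summed to 256 and 302 CPM in IkBKO and to 601 and 824 CPM in WT. In cells with no UMI of Fos, Fosb or Egr1, Klf4 had 1.72 ± 0.25 (adjusted p = 0.012) and Cebpa 0.61 ± 0.09 (adjusted p = 0.0025). A shallower cell more often lacks UMIs of these genes, and the part of the immediate-early genes in the members' results was not tested. Other marker lists moved too: the 8 monocyte and dendritic genes summed to 981 and 716 CPM in IkBKO and 586 and 531 CPM in WT, and the 6 mast cell and basophil genes to 110 and 85.9 CPM in IkBKO and 76.4 and 43.2 CPM in WT. No gene of these lists was at 0 in any pool, and the part of the mast cell and basophil genes in the members' results was not tested.

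In cells gated by a single lineage gene, no member passed the test between genotypes. The gates took cells with 1 or more UMIs of Mecom, a stem cell regulator, with 3 or more of Dntt, the lymphoid terminal transferase, and with 3 or more of Pf4, a platelet chemokine. They held 738 and 1714 IkBKO and 1106 and 1761 WT cells for Mecom, 264 and 527 IkBKO and 748 and 962 WT cells for Dntt, and 264 and 586 IkBKO and 113 and 196 WT cells for Pf4. edgeR called none of 8 members in the Mecom gate, beside 10.6% of genes, none of 8 in the Dntt gate, beside 12.8%, and none of the 5 members that passed the filter on low counts in the Pf4 gate, beside 1.46%. DESeq2 called none in any of them. An unadjusted p under 0.05 was reached by 2 members in the Mecom gate (Klf4 and Cebpd), 2 in the Dntt gate (Klf4 and Cebpb) and 0 in the Pf4 gate. The share of all genes that reached it is not given here. It cannot be below the 10.6% and 12.8% called after adjustment in the Mecom and Dntt gates. Klf4 in the Dntt gate stood at 0.536 and 2.99 CPM in IkBKO, against 3.39 and 4.36 CPM in WT (-0.94 ± 0.41, adjusted p = 0.13). It had 3.26 and 2.18 CPM in IkBKO and 4.08 and 4.12 CPM in WT in the Mecom gate (-0.61 ± 0.27, adjusted p = 0.20). Both IkBKO pools of Klf4 lay below both WT pools in each of these gates, though the IkBKO library 1 value in the Dntt gate rests on 2 UMIs. Cebpa in the Mecom gate stood at 27.9 and 14.1 CPM in IkBKO and 25.5 and 12.4 CPM in WT (0.19 ± 0.11, adjusted p = 0.31).

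Between gates, with cells that fell in exactly 1 gate, Pf4-gated cells had less of most members than Mecom-gated cells. Lower were 6 of 8, beside 29.4% of 12535 genes called and 14.6% called lower: Klf4 (-2.60 ± 0.70), Cebpd (-1.92 ± 0.48), Cebpa (-1.84 ± 0.37), Gfi1 (-1.58 ± 0.28), Cebpb (-1.03 ± 0.25) and Spi1 (-0.90 ± 0.20), with adjusted p between 5.0e-04 and 0.018. The Klf4 value rests on few UMIs. Without neutrophil-gene cells, the whole Pf4 gate held 1 and 4 Klf4 UMIs in IkBKO and 4 and 8 in WT. With cells in exactly 1 gate, the lowest Klf4 level in the Pf4 gate was 0 CPM. Cebpg (-0.07 ± 0.09) was not called. Cebpe was not called with all cells (-0.78 ± 1.13, adjusted p = 0.67), and it was lower without neutrophil-gene cells (-3.10 ± 0.59, adjusted p = 3.2e-04) and without library 2 (-2.90 ± 0.69, adjusted p = 4.2e-04), with 0.66 without library 1. Without library 2, Klf4 (-1.98, adjusted p = 0.053) and Cebpb (-1.45, adjusted p = 0.18) were no longer called, nor was Cebpd without library 1 (-1.16, adjusted p = 0.19). Klf4 also lost its call with cells in several gates kept (-1.24, adjusted p = 0.095), and Spi1 in thinned cells (-1.04, adjusted p = 0.081).

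Between Dntt-gated and Mecom-gated cells, Gfi1 was lower in the Dntt gate (-0.58 ± 0.17, adjusted p = 0.016) and was the 1 member called with all cells, beside 33.8% of genes called and 16.4% called lower. Spi1, whose product lymphoid progenitors also need, had 0.16 ± 0.16 in that comparison. Which members were called depended on the cells kept. Gfi1 was not called with cells in several gates kept (-0.39 ± 0.25, adjusted p = 0.28) or without library 2 (-0.39 ± 0.19, adjusted p = 0.13). Cebpe had -0.99 ± 0.88 with all cells, and was lower without neutrophil-gene cells (-2.04 ± 0.37, adjusted p = 1.1e-04) and without library 2 (-2.40 ± 0.45, adjusted p = 4.4e-06), with 0.31 without library 1. Cebpb had -0.51 ± 0.19 (adjusted p = 0.071), and was lower in thinned cells (-0.63, adjusted p = 5.0e-04), without neutrophil-gene cells (-0.52, adjusted p = 0.036) and without library 1 (-0.56, adjusted p = 0.0013).

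edgeR called no difference of genotype effects between gates for any member, beside 0.112% of genes for Dntt against Mecom and 0% for Pf4 against Mecom. For Pf4 against Mecom, Cebpd (-2.47 ± 0.70) was the 1 member with an unadjusted p under 0.05.

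Further gates of 3 or more UMIs of Elane (a neutrophil granule protease), Csf1r (the monocyte growth factor receptor), Car1 (erythroid) or Mcpt8 (basophil) placed each member in the hierarchy. Levels here are a description over 4 pools. Klf4 was highest in the Csf1r gate, at 52.8 and 73.7 CPM in IkBKO and 79.2 and 39.0 CPM in WT, where WT library 2 held 5 Klf4 UMIs. It came next in the Elane gate, at 30.5 and 24.9 CPM in IkBKO and 25.4 and 25.9 CPM in WT, and the Csf1r and Elane ranges did not overlap. In the Mcpt8 gate Klf4 stood at 2.36 CPM in IkBKO library 1 and had no UMI in the other 3 pools.

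Gfi1 had the reverse order of those gates, with 17.1 and 25.8 CPM in IkBKO and 28.5 and 49.0 CPM in WT in the Elane gate, and 10.6 and 3.16 CPM in IkBKO and 9.46 and 15.6 CPM in WT in the Csf1r gate. The WT pools of the Csf1r gate held 34 and 6 cells, so their values are coarse. Cebpa was highest in the Mcpt8 gate, at 71.9 and 60.8 CPM in IkBKO and 79.0 and 80.2 CPM in WT, with ranges that overlapped the Elane gate. Values of the Mcpt8 gate are coarse too: over its 4 pools Cebpe ran from 0 to 60.5 CPM, Gfi1 from 0 to 24.4 CPM and Cebpd from 8.91 to 41.9 CPM. Cebpe was highest in the Elane gate, at 22.4 and 49.6 CPM in IkBKO and 88.1 and 174 CPM in WT. Spi1 was lowest in the Car1 gate, at 30.6 and 25.4 CPM in IkBKO and 28.1 and 24.4 CPM in WT, apart from every other gate. Cebpb was high in both the Csf1r gate (131 to 210 CPM over the 4 pools) and the Elane gate (120 to 189 CPM). Cebpd was high in the same gates (49.5 to 125 CPM and 57.4 to 151 CPM). Cebpg kept between 27.8 and 70.1 CPM in every gate and pool.

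**Figure D5:**
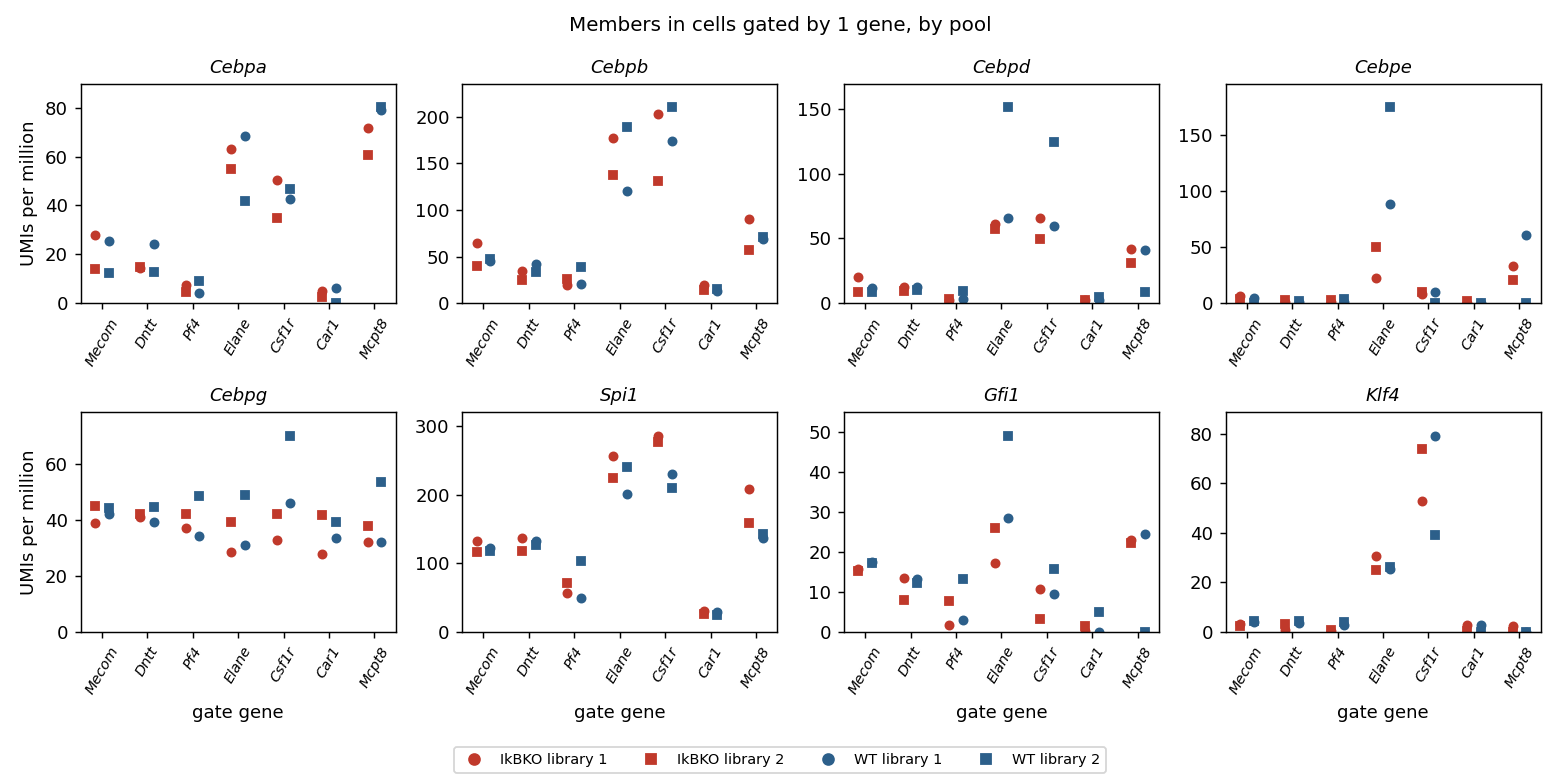
Level of each gene (CPM, axes start at 0) in cells gated by Mecom (1 or more UMIs) or by 3 or more UMIs of Dntt, Pf4, Elane, Csf1r, Car1 or Mcpt8; red points at the left of each gate are IkBKO, blue points at the right WT, circles library 1, squares library 2. Klf4 peaks in the Csf1r gate (39.0 to 79.2), Cebpe in the Elane gate (22.4 to 174), and Spi1 is lowest in the Car1 gate (24.4 to 30.6).

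Over 44 pools (the 4 Mpo bins and 7 gates in each genotype and library, which share cells), the genes whose log2(CPM + 1) followed each member most closely among 7743 genes were as follows, with Pearson's r as a description. Cebpb and Cebpd followed each other at 0.946, the highest of the member pairs. The proteinase 3 gene Prtn3 was among the 3 nearest to both, at 0.941 to Cebpb and 0.943 to Cebpd. Cebpa was nearest to Atp8b4 (0.949) and Il3ra (0.931), a receptor chain for interleukin-3. Spi1 was nearest to Glipr1 (0.963). Cebpe was nearest to Trem3 (0.871), a receptor gene of myeloid cells. Klf4 was nearest to Lgals3 (0.882), the galectin-3 gene. Gfi1 was nearest to Kcnk12 (0.853). Cebpg was nearest to Cklf (0.835) and had an r of -0.27 with Cebpe.

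The genes around the members moved in both directions over all LSK cells. Of 12 C/EBP partners and regulators, 4 were lower in IkBKO and none higher, with a list median of -0.36 against -0.006 over all genes. These were Fos (-2.56), Fosb (-2.29), Jun (-1.23) and Junb (-0.72), subunits of AP-1, and all 4 are also in the immediate-early list. Of 24 other lineage transcription factors, 3 were higher and 3 lower, with a median of -0.0015. Id1 (1.80) was among the higher ones, and Egr1 (-1.60), Klf2 (-1.43) and Klf6 (-0.81), the last 2 of them relatives of Klf4, were lower. Of 20 known myeloid targets of C/EBP proteins and PU.1, 19 were tested, and 9 were higher and 3 lower, with a median of 0.42. Mpo (1.88), Csf1r (1.76) and Prtn3 (1.27) were higher, and Camp (-2.94), a secondary granule gene and a known target of C/EBPε, was lower. Camp is also 1 of the 4 genes that define the neutrophil-gene cells, which numbered 10 and 13 in IkBKO and 27 and 16 in WT. Cebpe itself was not called over all LSK cells (-0.12). The part of these cells in the Camp value was not tested. The shares for all genes tested were 7.13% higher and 6.19% lower.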

How the data were processed

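Single-cell RNA of mouse LSK cells was measured in 2 droplet libraries (30000 cells sorted per condition and replicate, per the labels). The authors deposited raw UMI counts per gene and barcode, not normalized, with a cell table that gives a quality call and a genotype. Cell Ranger 6.0.0 is the version in the matrices, per the file headers; the submitters' processing notes name Cell Ranger 7.0, Seurat 4.3.0 and mm10. How cells were called passing, and how doublets were handled, was not given in the sources used here; no doublet caller was run. In library 1, 7683 of 9322 barcodes passed (82.4%), and in library 2, 10346 of 24787 (41.7%); passing cells were used with no further filter.

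The members and gene lists were chosen with earlier results of these data known. Counts were summed per genotype, library and cell group, and compared by edgeR 4.0.16's quasi-likelihood test (R 4.3.3, TMM, filterByExpr, robust fit), two-sided, with library as a block, Benjamini-Hochberg adjustment over all genes tested and a threshold of 0.05. Comparisons of Mpo bins or gates kept the 4 pools as a block. Pairing follows from the labels, since both genotypes of a replicate shared 1 library; the deviations of same-library pools correlated at 0.545 over 14605 genes. Gate thresholds count UMIs, so a deeper cell passes more easily, and cells thinned to 4000 UMIs were the check for this. In those comparisons gates and bins were set anew on the thinned counts, so they do not hold the same cells. The Mecom threshold of 1 UMI was this work's choice, with 3 as an alternative. Alternatives were DESeq2 1.42.0, other size factors, no filter, no block, leaving out pools and leaving out cells with neutrophil or monocyte-dendritic genes; those on monocyte-dendritic-gene cells, the comparisons built on them, and leaving out neutrophil-gene cells together with cells of 20 or more Mpo UMIs, or from comparisons of bins and gates, were added after the data were seen. Scripts were tested on simulated counts. All 8 members were named in every comparison, with the 3 genes most like each (the nearest are given) and up to 4 genes per list with the smallest p. Where members with an unadjusted p under 0.05 are counted, the share of all genes under it is not given. Gene coordinates came from GENCODE on mm10.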

Additional observations from a re-analysis of the deposited data

Results flagged for a closer look

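Klf4 is the member whose genotype effect differed between groups of cells by a test of the difference itself. Its log2 fold change (IkBKO over WT) was -0.10 in monocyte-dendritic-gene cells and -1.56 in the other cells, a difference of 1.55 ± 0.25 (adjusted p = 0.021). The cell groups were defined after the data were seen, with a threshold of 5 UMIs. In cells thinned to 4000 UMIs the difference was -0.10 ± 0.42 (adjusted p = 1.0) at that threshold and 2.33 ± 0.38 (adjusted p = 0.012) at a threshold of 1 UMI, so the result depends on depth and threshold together.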

How the results depend on the processing

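Counts below are members called, of 8. The shares of all genes called that are given above belong to the main fits, so counts from alternative fits have no such share beside them. Removing the replicate block took the count over all LSK cells to 0 from 2, with Mpo 0 at 1 in place of 4, Mpo 5 to 19 at 0 in place of 2, Dntt over Mecom at 0 in place of 1, and cells without monocyte-dendritic genes at 0 in place of 1; the pairing comes from the shared libraries. DESeq2 called 4 over all LSK cells, 0 at Mpo 0 and 0 at Mpo 5 to 19. With no filter on low counts there were 2 calls in the Mecom gate, 1 at Mpo 1 to 4 and 2 in cells without monocyte-dendritic genes. Thinned cells gave 1 call at Mpo 5 to 19, 3 for Mpo 1 to 4 over Mpo 0, 2 for Dntt over Mecom, and 0 for the difference of effects between monocyte-dendritic-gene and other cells. Without neutrophil-gene cells there was 1 call at Mpo 5 to 19, 1 for Mpo 1 to 4 over Mpo 0 and 3 for Dntt over Mecom, and Cebpe at Mpo 5 to 19 turned to 0.42. Cells kept in several gates gave 0 for Dntt over Mecom. Leaving out 1 pool or library gave 0 to 1 calls over all LSK cells, 0 to 1 in the Mecom gate, 0 to 2 at Mpo 0, 0 to 1 at Mpo 5 to 19, 0 to 2 in monocyte-dendritic-gene cells, 0 to 0 in the other cells and 1 to 2 for Dntt over Mecom. Over all LSK cells, Cebpa ran from -0.36 without IkBKO replicate 1 to 1.33 without WT replicate 1, with -0.0053 without WT replicate 2.

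Without cells of 20 or more Mpo UMIs there were 4 calls, with Cebpb (-0.32) among them and Cebpa (-0.21) not. Without neutrophil-gene cells as well there were 3 calls, with Cebpb (-0.30) among them and Cebpa (-0.21) not. The share of all genes called is not given for either fit, so these counts are not read as a result about the members. Without monocyte-dendritic-gene cells there was 1 call over all LSK cells, 1 at Mpo 1 to 4, 1 at Mpo 5 to 19 and 2 at Mpo 20 or more, and Klf4 turned to -1.56 over all LSK cells, -1.22 at Mpo 0, -1.64 at Mpo 1 to 4 and -1.30 for Mpo 20 or more over Mpo 0. These 4 Klf4 values use all UMIs, at a threshold that deeper cells pass more easily.

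The threshold that defines monocyte-dendritic-gene cells moved the counts built on it. At 5 UMIs, with cells not thinned, 1.49% of all genes were called inside these cells and 18.8% outside them. The shares at the other thresholds are not given here, so the counts of members cannot be set against them. Inside them, 4 members were called at 1 UMI (Klf4 1.11, Cebpd 0.71) and 3 at 2 UMIs (Klf4 0.61), and 2 in thinned cells at 1 UMI (Klf4 1.11). Outside them, 6 were called at 1 UMI (Cebpd -0.69), 3 at 2 UMIs and 2 at 8 UMIs; in thinned cells 0 at 1 UMI, 0 at 2 UMIs and 3 at 8 UMIs, where Klf4 was 1.01, against 0.33 at 5 UMIs. The difference of effects was called for 0 members at 1, 2 and 8 UMIs, and in thinned cells at 2, 3 and 8 UMIs, with Klf4 at -0.34 at 8 UMIs and -0.097 at 5 UMIs. Causes of these changes were not tested. Over all alternatives, single members had 1050 values with the same direction and call, 75 that lost a call, 50 that gained one, 186 uncalled values that changed sign and 20 called values that reversed. Depth limits Cebpe in cells with no Mpo UMI, where the IkBKO pools held 4 and 12 UMIs.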
